A study of Mus musculus with 8 samples.

Results

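The genes described here are the mouse genes whose symbols begin with Zfp and a digit, the older mouse prefix for zinc finger protein, as measured in fibroblasts with and without interferon-beta (IFN-beta). Of the 24015 gene symbols in the RNA-seq tables, 362 carried such a symbol, and 243 of these had a mean of 5 or more counts per 1000000 gene counts (CPM) over the 4 libraries. The 243 were thus chosen by their mean level over treated and untreated cells together, and the difference between the groups did not enter the choice. Just inside the limit lay Zfp319, Zfp458 and Zfp931 at 5.23, 5.27 and 5.31 CPM. Just outside it lay Zfp11, Zfp383 and Zfp300 at 4.97, 4.90 and 4.83 CPM. All 243 also had enough counts for the test across 12128 genes.

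The cells were wild-type mouse embryonic fibroblasts (MEFs) with a C57BL/6 strain background, from E12.5 embryos and used at passages 15 to 18. The treated group held 2 libraries of cells exposed for 6 h to recombinant mouse IFN-beta at 100 units/mL. They were set against 2 libraries of untreated cells. No label says that each replicate was a culture of its own, and the spread behind each p-value is that of these libraries and may be technical. The HA-tagged H3.3 chromatin samples of the series were not analysed here.

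Most Zfp genes encode proteins with fingers of the C2H2 type, in which a pair of cysteines and a pair of histidines hold a zinc ion so that the finger can read a short stretch of DNA. A large share of these proteins in mammals also carry a KRAB domain, which recruits the corepressor Trim28 and the histone methyltransferase Setdb1 and silences retroelements and imprinted loci. Genes of this kind often stand in clusters that arose by repeated duplication. The prefix was also given to unrelated zinc proteins, such as the Zfp36 family, which binds AU-rich messenger RNAs through CCCH fingers and brings about their decay.

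The IFN-beta libraries held 18901845 and 20714161 gene counts, and the untreated libraries 18528685 and 24817342. The libraries of a group were not copies of each other: their counts gave a chi-square of 11.98 per gene in the IFN-beta pair and 34.2 in the untreated pair. The 10 fibroblast markers summed to 6435 and 6072 CPM with IFN-beta, against 4742 and 5241 CPM untreated. None of them was called by edgeR or DESeq2, 3 were at an unadjusted p below 0.05, and 3 of the 10 had log2 fold changes below 0. They ran from -0.62 for Pdgfra (38.95 and 30.9 CPM with IFN-beta, 68.1 and 39.4 CPM untreated) to 0.54 for Fn1 (1470 and 1184 CPM with IFN-beta, 709.5 and 1114 CPM untreated), and Lum was at 1.01 to 4.21 CPM in the 4 libraries. The 6 epithelial markers together reached 0.785 and 0.857 CPM with IFN-beta and 0.468 and 1.02 CPM untreated. Tie1 and Utf1, an endothelial and a pluripotent cell marker, were at 0 in all 4 libraries. The other 5 endothelial markers were low, and their sum with Tie1 was 3.31 and 2.02 CPM with IFN-beta, against 1.09 and 1.14 CPM untreated. Of these Cdh5 was called higher, with 24 and 19 counts with IFN-beta, against 2 and 6 untreated (log2 fold change 2.68, adjusted p = 0.0140). The 8 macrophage and leukocyte markers summed to 21.9 and 16.7 CPM with IFN-beta, against 24.1 and 18.4 CPM untreated. The part of other cells in the values below was not tested.

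After 6 h of IFN-beta, 5 Zfp genes rose and 7 fell. Over all 12128 genes, 4.73% were called higher and 0.495% lower at a p below 0.05 from edgeR's quasi-likelihood test after Benjamini-Hochberg adjustment. Of the Zfp genes 2.06% rose and 2.88% fell. The 12 together were 4.94%, against 5.23% of all genes. In bulk RNA, fewer cells of a type and less RNA per cell cannot be told apart. A 2-fold change in either direction was reached by 5 of the 243, or 2.06%, against 4.92% of all tested genes. Values of single genes below are CPM scaled by the trimmed mean of M values (TMM), which sets the libraries to a common level using most genes, and fold changes are from the same fit.

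**Figure D1:**
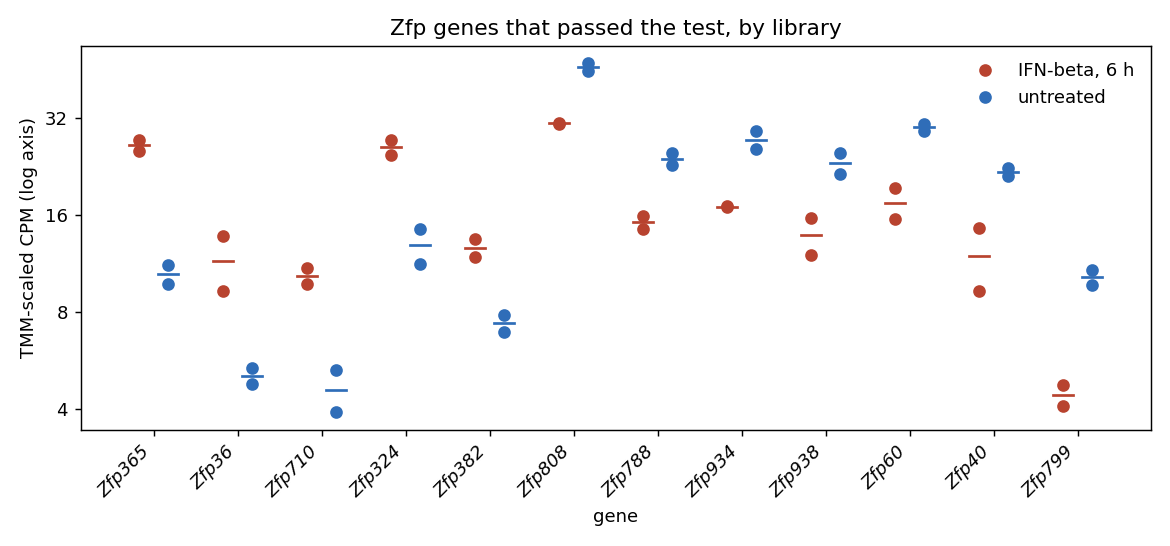
TMM-scaled CPM (log axis) of the 12 Zfp genes that passed the test, ordered by fold change, with 1 point for each library and a bar at the mean of 2 libraries. Both IFN-beta libraries (left, red) lie above both untreated ones (right, blue) for the 5 genes on the left and below them for the 7 genes on the right.

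Zfp365, the mouse counterpart of a human gene linked to genome stability, was at 27.4 and 25.4 CPM with IFN-beta, against 9.77 and 11.2 CPM untreated. This was the largest rise among the 243, with a log2 fold change of 1.33 ± 0.16 (SE, adjusted p = 0.000596). Zfp36, or tristetraprolin, the mRNA decay factor, had 13.7 and 9.27 CPM with IFN-beta, against 4.78 and 5.35 CPM untreated. The treated libraries differed from each other by more than the untreated ones did, but all values with IFN-beta were the higher ones (1.18 ± 0.23, adjusted p = 0.0141). Without IFN-beta replicate 1 the call was lost (0.87, adjusted p = 0.190).

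Zfp710 was at 10.98 and 9.78 CPM with IFN-beta, against 3.90 and 5.27 CPM untreated (1.17 ± 0.22, adjusted p = 0.00971). Zfp324 was at 24.6 and 27.4 CPM with IFN-beta, against 11.2 and 14.5 CPM untreated (1.01 ± 0.18, adjusted p = 0.00738). Zfp382, whose rat and human counterparts are KRAB repressors, was at 11.8 and 13.5 CPM with IFN-beta and 6.91 and 7.85 CPM untreated (0.77 ± 0.19, adjusted p = 0.0414). The groups did not overlap for any of these genes. The rises of Zfp365, Zfp710 and Zfp324 passed under all 9 alternative fits, whereas Zfp382 no longer passed when scaled by total counts (adjusted p = 0.0836), nor when IFN-beta replicate 1 or 2 was left out (adjusted p = 0.110 and 0.308).

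Among the falls, Zfp799 had the largest, with 4.09 and 4.74 CPM with IFN-beta, against 9.72 and 10.8 CPM untreated. This was 2.32-fold lower (log2 fold change -1.21 ± 0.20, adjusted p = 0.00479), and it passed under all 9 alternatives. Zfp60 was at 15.5 and 19.4 CPM with IFN-beta, against 30.7 and 29.2 CPM untreated (-0.78 ± 0.16, adjusted p = 0.0215). Zfp40 was at 9.30 and 14.6 CPM with IFN-beta, against 22.4 and 21.2 CPM untreated (-0.86 ± 0.21, adjusted p = 0.0482). Both genes lay lower in each treated library than in each untreated one, though the treated libraries of Zfp40 stood well apart.

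Zfp934 was at 16.9 and 17.1 CPM with IFN-beta, against 29.3 and 25.6 CPM untreated (-0.69 ± 0.16, adjusted p = 0.0302). Zfp808, near it in the listed order of genes used below, was at 30.9 and 30.7 CPM with IFN-beta, against 47.4 and 44.7 CPM untreated (-0.58 ± 0.13, adjusted p = 0.0349). Their treated libraries were close to each other. Zfp788 (14.5 and 15.9 CPM with IFN-beta, 25 and 22.9 CPM untreated) had a log2 fold change of -0.65 and an adjusted p of 0.0438. Zfp938 (12.1 and 15.6 CPM with IFN-beta, 25 and 21.4 CPM untreated) had -0.74 and an adjusted p of 0.0477. Zfp40 and Zfp938 passed in 4 of the 5 alternatives that keep all libraries, and lost their calls with the size factors of DESeq2. The rest of the 7 falls passed in all 5. Without IFN-beta replicate 1, of these 7 falls only that of Zfp799 was called, with adjusted p-values of 0.261 to 0.575 for the other 6.

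Overlaps of the called genes with other genes are not given here. Start and end positions appear to have been compared as text rather than as numbers, which can pair genes that lie far apart. With no stated strand setting, reads of genes that do overlap cannot be told apart.

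The promoters of the largest rise, of Zfp36 and of the largest fall show how the sequence before these starts looks beside the motif of the interferon response. Each is the 250 bases before the RefSeq start (GRCm38.p6), 5′ to 3′ on the strand of the gene. They are chr10:67912663-67912912, minus strand, for Zfp365, chr7:28379229-28379478, minus strand, for Zfp36, and chr17:32830262-32830511, minus strand, for Zfp799. Capitals mark the letters of a GAS-like motif, of which the windows held 1.
Zfp365: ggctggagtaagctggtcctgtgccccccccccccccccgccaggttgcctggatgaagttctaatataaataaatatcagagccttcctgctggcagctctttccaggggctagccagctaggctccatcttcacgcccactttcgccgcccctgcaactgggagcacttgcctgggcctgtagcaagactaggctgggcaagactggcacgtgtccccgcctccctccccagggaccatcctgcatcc
Zfp36: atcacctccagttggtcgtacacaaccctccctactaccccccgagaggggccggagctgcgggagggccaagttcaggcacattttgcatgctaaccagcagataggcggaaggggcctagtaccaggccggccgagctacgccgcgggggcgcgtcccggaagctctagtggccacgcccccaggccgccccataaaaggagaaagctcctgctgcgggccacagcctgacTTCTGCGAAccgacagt
Zfp799: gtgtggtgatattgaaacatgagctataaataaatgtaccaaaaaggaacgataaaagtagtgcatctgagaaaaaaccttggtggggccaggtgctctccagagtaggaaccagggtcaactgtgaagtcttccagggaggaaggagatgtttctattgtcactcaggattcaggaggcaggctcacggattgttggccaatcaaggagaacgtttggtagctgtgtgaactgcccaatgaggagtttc

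The motifs searched on both strands, in windows of 250 bases before to 50 after the start, were GAAA, any pair of bases and GAAA again, the core of the interferon-stimulated response element (ISRE), and TTCNNNGAA, the gamma-activated sequence (GAS). The second reads the same on both strands, and a match of one may share bases with a match of the other. Promoter sequences were found for 200 of the 243 Zfp genes. The ISRE core was in 4 of them, or 2.0%, against 3.99% of all 27025 genes with a promoter sequence and 18.3% of the 416 genes called higher that had one. The 4 were Zfp213 (log2 fold change 0.44), Zfp334 (0.20), Zfp420 (-0.33) and Zfp935 (-0.31), and none of them passed the test. None of the 5 rising Zfp genes and none of the 5 falling ones with a sequence held it. The GAS letters were in 33 of the 200, or 16.5%, against 9.55% of all genes and 12.02% of the 416 genes called higher. They were in 23 of 80 clustered Zfp genes (28.75%) and in 7 of 74 isolated ones (9.46%). These classes are defined below by Zfp neighbours in a listed order of genes. Among called Zfp genes they were in Zfp36 alone, where the motif began 17 bases before the annotated start. A match is a stretch of letters and not a shown binding site. Matches in clustered genes are not independent of each other, since such genes often arose by duplication. The median share of G and C bases in the promoter sequences was 52.3% for clustered genes, 59.8% for isolated ones and 52.7% for all genes. The part of duplication and of base content in these shares was not tested.

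Beyond the called genes, the Zfp genes as a group were low after IFN-beta. Of the 243, 178 (73.3%) had a log2 fold change below 0, against 52.7% of all tested genes. Their median was -0.19 (quartiles -0.37 and 0.02), against -0.02 (quartiles -0.22 and 0.17) for all tested genes. In single library pairs between groups, 61.3% to 77.4% of the 243 had a log2 ratio below 0, with medians from -0.22 to -0.11. Between the IFN-beta libraries, replicate 1 over 2, 67.1% were below 0 with a median of -0.09 and no difference in treatment. In the untreated pair, replicate 1 over 2, 60.5% were below 0, with a median of -0.07. Both IFN-beta libraries lay below both untreated ones for 123 Zfp genes (50.6%) and above them for 29 (11.9%). Over all tested genes the shares were 26.8% below and 23.9% above. At an unadjusted p below 0.05, 55 Zfp genes were lower (22.6%, against 8.56% of all genes) and 12 higher (4.94%, against 9.60%). Summed over the 243 genes, the level was 7488 and 7744 CPM with IFN-beta, against 8388 and 8536 CPM untreated, a ratio of 0.900. With 2 libraries against 2 no exact permutation test can go below p = 0.3333, so none was run on this sum.

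**Figure D2:**
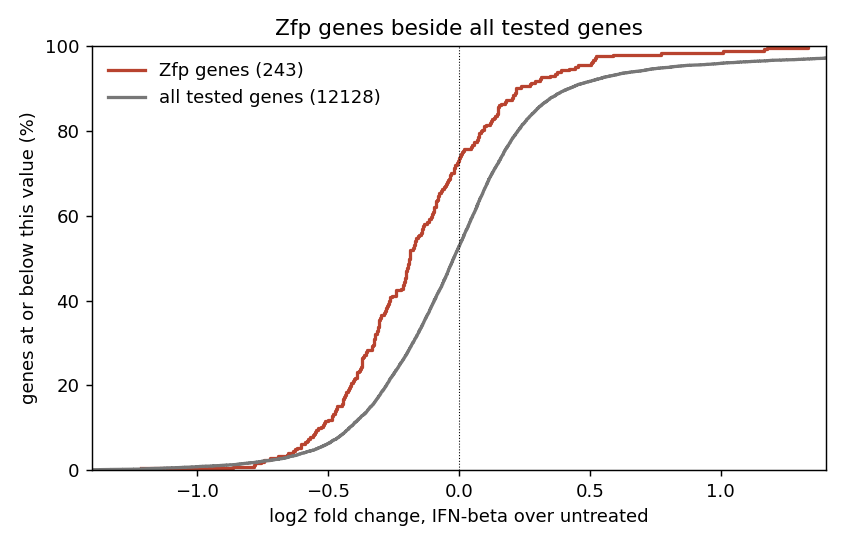
Share of genes (%) at or below each log2 fold change of IFN-beta over untreated, for the 243 Zfp genes (red) and all 12128 tested genes (grey), between -1.4 and 1.4. The Zfp curve runs left of the other through the middle of the plot, crossing 0 at 73.3% against 52.7%.

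The shift was seen at each level of expression. The median log2 fold change was -0.19 for the 94 Zfp genes at 5 to 15 CPM, -0.19 for the 97 at 15 to 40 CPM and -0.19 for the 52 at 40 CPM or more, and all tested genes in these ranges had medians of -0.03, -0.01 and 0.00. In the uppermost range 45 of 52 Zfp genes were below 0. Of the 119 Zfp symbols under 5 CPM, 73 had enough counts for the test, with a median of -0.16 and 47 below 0. The single call there was Zfp296, a pluripotency-linked gene, with 12 and 20 counts with IFN-beta, against 3 and 4 untreated (log2 fold change 2.42 ± 0.54, adjusted p = 0.0298). DESeq2 made 0 calls among these low genes. A further 14 symbols had no count in any library.

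The Zfp genes were also split by their place in a list of RefSeq (GRCm38) protein-coding genes, sorted by chromosome and start. The starts appear to have been sorted as text rather than as numbers. Entries next to each other in this listed order may thus lie far apart, and true neighbours may be separated. Of the 243, 242 could be placed, all but Zfp862-ps. A total of 87 had 3 or more other Zfp genes among the 5 entries on each side and are called clustered here. Another 64 had 1 or 2, and 91 had none and are called isolated. Only symbols of Zfp and a digit were counted as neighbours. Zinc finger genes under other symbols were not, so an isolated gene may still stand beside such genes. The median log2 fold change was -0.32 for clustered genes, -0.21 for those with 1 or 2 such neighbours and -0.02 for isolated genes. The value for isolated genes mixed unlike levels: it was 0.08 for the 26 at 5 to 15 CPM, 0.00 for the 38 at 15 to 40 CPM and -0.15 for the 27 at 40 CPM or more, where 21 were below 0. Clustered genes were at -0.31, -0.32 and -0.33 in these ranges. Values below 0 were found for 79 of the 87 clustered genes (90.8%), 50 of the 64 in between (78.1%) and 49 of the 91 isolated ones (53.8%). At an unadjusted p below 0.05, 32 clustered genes were lower and 1 was higher, while 6 isolated genes were lower and 9 higher. These counts moved with single libraries. Without IFN-beta replicate 1, 2 clustered genes were lower and 1 higher, and 2 isolated genes were lower and 5 higher. Without untreated replicate 2, 39 clustered genes were lower and 2 higher, and 16 isolated genes were lower and 24 higher. Without untreated replicate 1, 11 isolated genes were lower and 9 higher. The difference between these classes is a description with no test, since genes of a cluster are not independent and the classes were set after the values were seen.

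**Figure D3:**
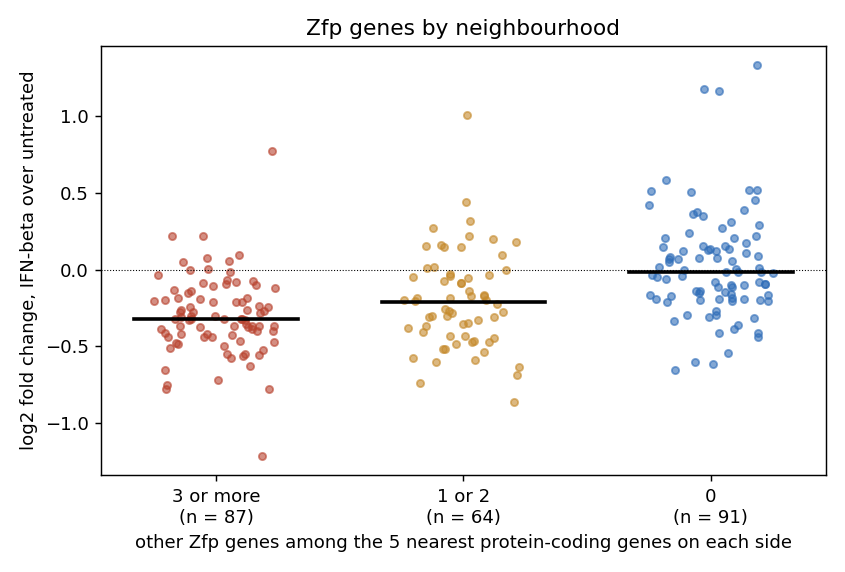
Log2 fold change of IFN-beta over untreated for each of 242 Zfp genes, with a black bar at the median. Genes are split by how many other Zfp genes stand among the 5 entries on each side in the listed order. The axis calls these entries nearest, but they may lie far apart on the chromosome. The medians are -0.32, -0.21 and -0.02 from left to right, and the 3 highest points belong to isolated genes.

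Calls were few in each class. Falls were called for 2.30% of clustered genes, 6.25% of those in between and 1.10% of isolated genes, so that they did not follow the order of the medians. Rises were called for 1.15%, 1.56% and 3.30% in these classes. The following neighbours are those of the listed order and may not be the true ones. Of the 5 rises, Zfp365, Zfp36 and Zfp710 were isolated, Zfp324 had 1 Zfp neighbour and Zfp382 was clustered, with 6. Of the 7 falls, Zfp799 and Zfp60 were clustered, with 3 and 6 Zfp neighbours. Zfp40, Zfp808, Zfp934 and Zfp938 had 1 or 2, and Zfp788 had none. Of the tested genes close to these 12 in the listed order, 6720489N17Rik, close to Zfp934, was the only one outside the 12 to be called. It fell (log2 fold change -0.87, adjusted p = 0.0158). Genes that truly stand next to the 12 may be missing from this comparison.

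Pairs of single libraries showed the order of the classes between groups, and it also appeared between replicates of IFN-beta. The median log2 ratio of the clustered genes was -0.35 and -0.40 for IFN-beta replicate 1 over untreated replicates 1 and 2, and -0.23 and -0.21 for IFN-beta replicate 2 over the same. Within groups it was -0.17 for IFN-beta replicate 1 over 2, with 81.6% of clustered genes below 0, and -0.06 for untreated replicate 1 over 2. In the IFN-beta pair the genes with 1 or 2 Zfp neighbours were at -0.09 and the isolated ones at -0.004, so that the classes stood in the same order with no difference in treatment. In the untreated pair they were at -0.05 and -0.15. For clustered genes the 4 medians between groups were all larger in size than those within groups, with the distance between the IFN-beta libraries close to the smallest of them. For isolated genes the 4 medians between groups ran from -0.06 to 0.02, all smaller in size than the value of -0.15 within the untreated pair. Without IFN-beta replicate 1 the clustered median was -0.23, and without IFN-beta replicate 2 it was -0.39.

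**Figure D4:**
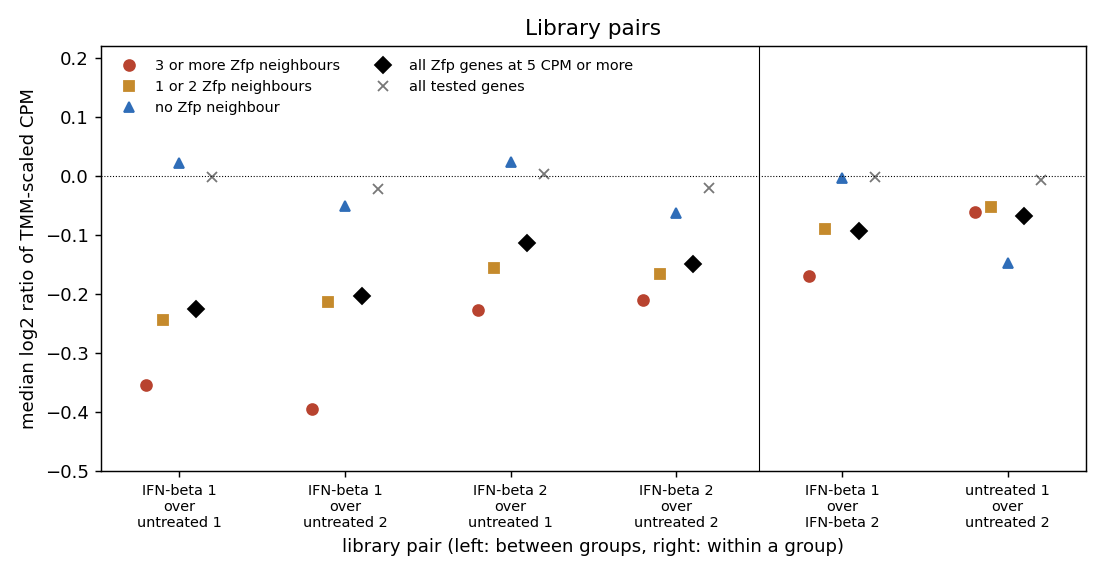
Median log2 ratio of TMM-scaled CPM for each pair of libraries. Values are shown for Zfp genes by number of Zfp neighbours in the listed order, for all 243 Zfp genes and for all tested genes. The 4 pairs between groups are on the left and the 2 pairs within a group on the right. Clustered genes (red circles) lie between -0.40 and -0.21 in the pairs between groups and at -0.17 and -0.06 within groups.

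Genes of such clusters can be near-identical in part. Alignments that were not unique were tallied apart and given to no gene, so such copies may lose reads and their values are uncertain. Alignments that were not unique made up 34.9% and 37.2% of records with IFN-beta, against 32.95% and 29.8% untreated. Records outside annotated genes made up 21.9% and 23.7% with IFN-beta, against 27.2% and 28.2% untreated. Both shares moved with treatment, and their part in the Zfp values was not tested. The part of reads from overlapping genes was not tested, since the overlaps were sought with positions that appear to have been compared as text.

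Among runs of Zfp genes at most 5 steps apart in the same listed order, 4 held at least 6 members, and 49 of their 51 members were below 0. The longest, from Zfp677 to Zfp213, had 18 members with a median of -0.33. It held Zfp40 and also Zfp760 (11.3 and 18.6 CPM with IFN-beta, 23.2 and 27.2 CPM untreated, adjusted p = 0.105) and Zfp948 (87.4 and 100.2 CPM with IFN-beta, 131.0 and 136 CPM untreated, -0.51, adjusted p = 0.0521). Its 1 member above 0 was Zfp213 at its end (31.5 and 34.3 CPM with IFN-beta, 21.2 and 27.1 CPM untreated, 0.44, adjusted p = 0.188). In the run from Zfp708 to Zfp273 all 16 members were below 0, from -0.72 for Zfp273 to -0.01 for Zfp458, with a median of -0.40 and no call over all genes. In the run from Zfp871 to Zfp563 all 7 were below 0, with Zfp799 the lowest. In the run from Zfp84 to Zfp146, 9 of 10 were below 0 with a median of -0.15, and the other was the rising Zfp382. Its neighbours in that order, Zfp260 and Zfp146, were at -0.33 and -0.08.

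**Figure D5:**
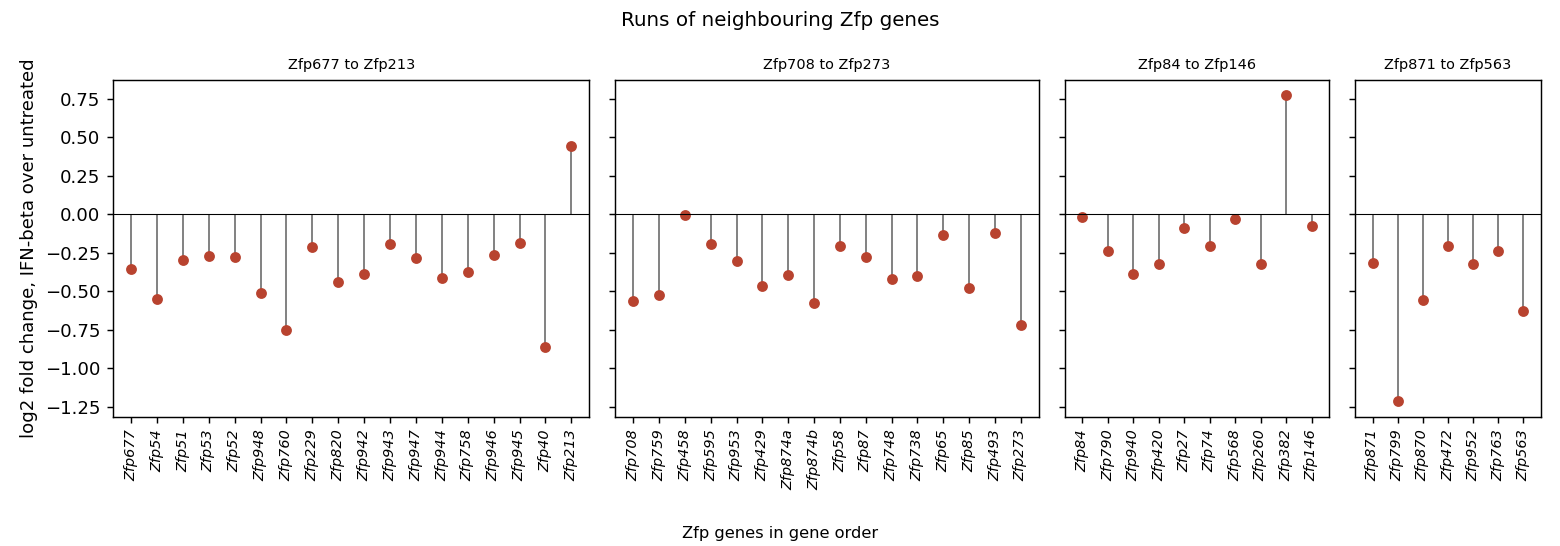
Log2 fold change of IFN-beta over untreated for the members of the 4 runs of Zfp genes with at least 6 members. Runs and the order within them follow the listed order of genes. Of 51 genes, 49 lie below 0, and the clear exceptions are Zfp213 and Zfp382.

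Members with a known role were described by lists. In the mRNA decay family, Zfp36 rose, while its relatives Zfp36l1 and Zfp36l2 did not pass. Zfp36l2 was at 217.5 and 151.6 CPM with IFN-beta, against 118.3 and 141.3 CPM untreated (0.51 ± 0.18, adjusted p = 0.161), and Zfp36l1 at 46.8 and 36.0 CPM with IFN-beta, against 25.4 and 36.2 CPM untreated (0.42, adjusted p = 0.297). The treated values of Zfp36l1 reached into the untreated range. Zfp36l3, a placental relative, had no counts. The mRNA levels of the machinery through which these proteins act changed in part. Of 21 genes of the CCR4-NOT deadenylase, decapping and related decay factors, 4 rose and 0 fell. Over all tested genes 4.73% were called higher and 0.495% lower. The decapping enzyme gene Dcp2 was at 321.5 and 318.7 CPM with IFN-beta, against 95.8 and 115.4 CPM untreated (1.60 ± 0.14, adjusted p = 3.1e-05). The exonuclease gene Xrn1 was at 75.5 and 73.7 CPM with IFN-beta, against 26.5 and 28.7 CPM untreated (1.43, adjusted p = 6.4e-05). The deadenylase gene Cnot6l (0.70, adjusted p = 0.00882) and Btg1 (0.57, adjusted p = 0.0315), which binds the deadenylases, made up the 4. Btg1 passed in 4 of the 5 alternatives that keep all libraries, and Dcp2, Xrn1 and Cnot6l passed in all 5.

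KRAB proteins that guard imprints or repress retroelements gave 0 calls among 7 tested by edgeR and by DESeq2. At an unadjusted p below 0.05 were 3 of them, Zfp708, Zfp932 and Zfp961 (-0.42, adjusted p = 0.226). Over all 12128 tested genes, 5.23% were called by edgeR in either direction and 18.2% were at an unadjusted p below 0.05. Of the 7, 6 had log2 fold changes below 0, with a median of -0.15. Zfp57, which protects imprints, was at 24.8 and 29.2 CPM with IFN-beta, against 23.8 and 29.5 CPM untreated, and Zfp445, which shares that role, had a log2 fold change of -0.05. The groups of both overlapped. Zfp809, which silences murine leukaemia virus copies, was at -0.15, Zfp568, a repressor of an Igf2 promoter, at -0.03, and the retroelement repressors Zfp932 and Zfp708 were at -0.37 (adjusted p = 0.211) and -0.57 (adjusted p = 0.145). Their corepressor genes gave 0 calls among 18 by edgeR and by DESeq2, with 3 at an unadjusted p below 0.05, a median of 0.07 and 7 below 0. Trim28 was at 208.7 and 204.4 CPM with IFN-beta, against 165.8 and 175.1 CPM untreated (0.28, adjusted p = 0.257), Setdb1 at 84.8 and 83.7 CPM with IFN-beta, against 69.1 and 80.2 CPM untreated (0.17, adjusted p = 0.524), and the heterochromatin protein gene Cbx3 at -0.42 (adjusted p = 0.138).

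None of the 8 most abundant Zfp genes passed the test. Zfp207, a spindle assembly factor, was highest, at 294.6 and 311.1 CPM with IFN-beta, against 377.3 and 304.4 CPM untreated (-0.17, adjusted p = 0.557). Zfp106, an RNA-binding protein gene, was at 260.2 and 217.8 CPM with IFN-beta, against 191.9 and 222.2 CPM untreated (0.21). Zfp36l2, described above with its family, is also among the 8. It had both IFN-beta libraries higher (0.51) and passed in 1 of the 5 alternatives that keep all libraries. Zfp148 (-0.21, adjusted p = 0.386), Zfp644 (-0.28, adjusted p = 0.281), the ubiquitin ligase gene Zfp91 (-0.01) and Zfp706 (0.15) did not pass. Zfp266 was at 113.5 and 120.6 CPM with IFN-beta, against 162.5 and 155.8 CPM untreated (-0.44, adjusted p = 0.0734), and it passed in 2 of the 5 alternatives that keep all libraries.

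The list of RNA, ribosome and spindle proteins had 0 calls among 11 by edgeR and by DESeq2 and 1 at an unadjusted p below 0.05, with a median of 0.07. The collided-ribosome ligase gene Zfp598 was at -0.17, Zfp622, a factor of large ribosomal subunit maturation in other species, at 0.07, and Zfp593 at 0.52 (adjusted p = 0.233). General promoter and chromatin regulators had 0 calls among 17 by both tools and 1 at an unadjusted p below 0.05, with a median of 0.05. Of these Zfp143, an activator of small nuclear RNA genes, was at -0.02, Zfp410, an activator of Chd4, at 0.08, and Zfp687 at 0.51 (adjusted p = 0.127). Among the mesenchymal and developmental regulators all 9 tested genes were above 0 with a median of 0.22, but the sole call was the low Zfp296. Zfp521, which restrains fat cell fate, was at 43.2 and 34.1 CPM with IFN-beta, against 36.9 and 22.9 CPM untreated (0.37, adjusted p = 0.407). Zfp423, which promotes it, had 1 and 0 counts with IFN-beta, against 1 and 2 untreated, and was not tested. The cell-cycle regulator gene Zfp367 was at -0.19 (adjusted p = 0.460). The 3 ubiquitin and SUMO ligase genes had 0 calls by both tools and 0 at an unadjusted p below 0.05.

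Other zinc finger families were measured beside the Zfp genes. The Zbtb family, whose proteins join C2H2 fingers to a BTB domain, had a median of -0.08, with 27 of 38 tested genes below 0. Zbtb5 was its 1 call, at 25.6 and 23.7 CPM with IFN-beta, against 9.51 and 10.7 CPM untreated (1.28 ± 0.17, adjusted p = 0.000821). The Zscan and Zkscan genes, with a SCAN domain beside the fingers, had a median of -0.08 with 11 of 17 below 0 and 0 calls by edgeR and by DESeq2, also at an unadjusted p below 0.05. The CCCH family Zc3h had a median of 0.15 with 6 of 17 below 0. Its calls were the antiviral protein gene Zc3hav1, at 217.8 and 212.1 CPM with IFN-beta, against 30.1 and 37.4 CPM untreated, and Zc3h7a (0.66, adjusted p = 0.00964). The differences between these medians and that of the Zfp genes were not tested.

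The number of calls moved with the settings, for Zfp genes and for all genes alike. Falls were called for 13 Zfp genes (5.35%, against 0.849% of all genes) with DESeq2, 5 (2.06%, against 0.445%) with its size factors, 24 (9.88%, against 2.28%) with no count filter, 13 (5.35%, against 1.28%) with a replicate block and 23 (9.47%, against 2.88%) with total library size. Rises were called for 5 (2.06%, against 5.13%), 5 (2.06%, against 4.81%), 8 (3.29%, against 5.16%), 5 (2.06%, against 5.71%) and 4 (1.65%, against 3.94%) in the same order. Without IFN-beta replicate 1 there was 1 fall (0.412%, against 0.192%) and 3 rises (1.23%, against 3.75%), and without IFN-beta replicate 2 there were 6 falls (2.47%, against 0.445%) and 5 rises (2.06%, against 4.27%). Without untreated replicate 1 there were 26 falls (10.7%, against 1.82%) and 8 rises (3.29%, against 6.91%), and without untreated replicate 2 there were 55 falls (22.6%, against 14.0%) and 24 rises (9.88%, against 15.3%). In each of these fits the share of falls was above that of all genes and the share of rises below it.

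With all libraries kept, 24 further Zfp genes passed in at least 1 of 5 alternative fits, 21 of them lower and 3 higher. Those with the smallest p-values in the fit used here were Zfp948, Zfp606 (-0.63, adjusted p = 0.0563), Zfp101 (-0.65, adjusted p = 0.0585), Zfp157 (-0.59, adjusted p = 0.0593) and Zfp518a (-0.55, adjusted p = 0.0602). For each of these both IFN-beta libraries were the lower ones. Zfp606 was at 18.8 and 23.9 CPM with IFN-beta, against 33.2 and 33.1 CPM untreated. Others were Zfp81 (-0.50), Zfp182 (-0.54), Zfp2 (-0.78), Zfp266 and Zfp608 (0.59, adjusted p = 0.0825). The 3 with higher values were Zfp608, Zfp36l2 and Zfp697 (0.52, adjusted p = 0.243), the last named after its values were seen.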

How the data were processed

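The authors deposited raw counts of reads per gene symbol, a table for each library. The tools named in the submitters' processing notes are HTSeq 0.7.2 and TopHat2 2.0.13, and the build is mm9. The annotation and strand setting are not given in the sources used here. The 5 summary lines of each table, 57.3% to 61.3% of records, were left out. Reads of near-identical copies and of overlapping genes are uncertain.

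All genes were tested together with edgeR 4.0.16 (quasi-likelihood, TMM, default filter with a minimum count of 10, group as the only term) and adjusted by the Benjamini-Hochberg method over all tested genes. The SE is the log2 fold change divided by the square root of F. Members were chosen on CPM from total counts, and CPM in the text are TMM-scaled. Library ratios used a prior of 0.5 CPM. The procedure was tested on simulated data. Members, lists and classes were chosen with earlier results of these data known. Genes are named if called, among the 8 most abundant, the 5 largest changes in each direction, beside the level limit, in a role list or passed by an alternative. Values were already seen when examples from runs, genes with the ISRE core and neighbours were picked.

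Alternatives were DESeq2 1.42.0, its size factors, total library size, no count filter, a replicate block and each library left out. Promoters and gene order came from RefSeq (GRCm38.p6). Positions in that order appear to have been compared as text, so listed neighbours may lie far apart on the chromosome. Of the 243 symbols 241 matched directly and 2 by a synonym. The planned split by KRAB box needs protein sequences, which were not used here.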

Additional observations from a re-analysis of the deposited data

How the results depend on the processing

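The median of the Zfp genes was below 0 under each alternative run, while the counts of calls moved. The number of Zfp genes called lower was 7 in the fit reported, 13 with DESeq2, 24 without a count filter, 23 with total library size scaling and 13 with the replicate block. The number called higher was 5, 8 without a count filter and 2 among members at 10 CPM or more. With 1 library left out, the lower count ran from 1 without IFN-beta replicate 1 to 55 without untreated replicate 2, and was 26 without untreated replicate 1. The higher count ran from 3 to 24 over the same fits (8 without untreated replicate 1). In these fits 1 group holds a single library that is assumed to vary like the other group. The cause was not tested.

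Total library size scaling moved the median of all tested genes to -0.16 and that of the Zfp genes to -0.33, a distance of -0.17 as in the fit reported. Under it the medians of clustered and isolated genes were -0.46 and -0.16, the ratio of summed levels 0.815 and the number of Zfp genes with both IFN-beta libraries higher 14. The median of the Zfp genes ran from -0.21 to -0.13 with 1 library left out. Windows of 3 or 10 entries of the listed order, chosen after seeing the data, moved the class medians by less than the spread between replicates.

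The numbers shared by replicates do not pair the libraries by the labels, and same-numbered libraries did not deviate together (correlation -0.033). The replicate block left 5 Zfp genes called higher. With 1 library left out, the corepressor genes had 0 to 3 calls higher and 0 to 2 lower, the decay partners 2 to 8 higher, Zbtb 1 to 3 higher and 0 to 1 lower, Zscan and Zkscan 0 to 1 in each direction, and Zc3h 1 to 7 higher and 0 to 2 lower. With all libraries, 1 corepressor gene was lower without a count filter and 1 with total library size, and 1 Zc3h gene was lower under each of the 5 alternatives.

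Values near 0 changed sign. With total library size these were Zfp281 (-0.071), Zfp319 (-0.14), Zfp326 (-0.13), Zfp335 (-0.0091), Zfp410 (-0.065), Zfp462 (-0.088), Zfp503 (-0.039), Zfp57 (-0.13), Zfp622 (-0.071), Zfp652 (-0.10) and Zfp746 (-0.050), and Zfp458 was at 0.0035 with DESeq2 and with its size factors. With 1 library left out the ranges were -0.14 to 0.13 (Zfp143), -0.32 to 0.016 (Zfp207), -0.31 to 0.011 (Zfp277), -0.094 to 0.035 (Zfp318), -0.25 to 0.39 (Zfp319), -0.074 to 0.12 (Zfp326), -0.035 to 0.37 (Zfp335), -0.16 to 0.055 (Zfp445), -0.16 to 0.14 (Zfp458), -0.22 to 0.46 (Zfp462), -0.11 to 0.30 (Zfp503), -0.14 to 0.11 (Zfp532), -0.21 to 0.20 (Zfp568), -0.10 to 0.19 (Zfp57), -0.051 to 0.24 (Zfp622), -0.044 to 0.26 (Zfp746), -0.27 to 0.013 (Zfp809), -0.081 to 0.045 (Zfp830) and -0.075 to 0.051 (Zfp91). The planned split by KRAB box was not run.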
